A study of Homo sapiens with 5 samples.

Results

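The genes examined here are 10 genes of the YAP, TAZ and TEAD axis, listed by name rather than by a cutoff on a measured value, although with earlier results of these data known, out of 20098 protein-coding genes on chromosomes 1 to 22 and X. They comprise the coactivator genes YAP1 and WWTR1 (which encodes TAZ), the transcription factor genes TEAD1, TEAD2, TEAD3 and TEAD4, and the target genes CCN1 (CYR61), CCN2 (CTGF), ANKRD1 and AMOTL2. Binding at these genes was read from ChIP-Seq peak lists of 3 transcription factors: Fra-1 (encoded by FOSL1, a subunit of AP-1), MYC and E2F1. All libraries came from LM2 cells, a lung-metastatic derivative of the human breast cancer line MDA-MB-231, which the labels give as untreated and which were crosslinked with 1% formaldehyde. The study's supplement also ties lysates of cells carrying a control vector or shRNA to its ChIP-Seq, and the labels were followed here. Each factor was represented by 1 library from this 1 cell line, called against the same input DNA, so there is no replicate spread and no value below carries a test. EZH2 and input libraries are also among the samples and were not analysed as peak lists here. The lists record where a factor was crosslinked and contain no expression values, so neither the identity of the cells nor the level of the 10 genes could be checked from them.

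YAP and TAZ are the transcriptional coactivators restrained by the Hippo kinase cascade. Phosphorylation by the LATS kinases retains them in the cytoplasm, whereas in the nucleus they bind DNA through the TEAD factors, which recognise the sequence GGAATG. AP-1, a dimer of FOS and JUN family proteins, recognises TGACTCA and its complement TGAGTCA, and it is known to occupy many enhancers together with TEAD factors in breast cancer cells. CCN1 and CCN2 encode secreted matricellular proteins, ANKRD1 encodes an ankyrin repeat protein that shuttles between sarcomere and nucleus in muscle, and AMOTL2 encodes an angiomotin family protein that binds YAP in a feedback loop.

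Each gene was given a promoter (2 kb upstream to 2.5 kb downstream of any annotated TSS), a gene body and flanks of 50 kb on either side, and each peak was assigned to 1 class in that order. Strength is given as fold enrichment, the ratio of the fragment pileup at the summit to the local background from the input, together with the percentile of that value among all peaks of the same library. Distances are from the Ensembl canonical TSS, and coordinates are hg19. The Fra-1 list held 17320 peaks with a median fold enrichment of 8.24, the MYC list 4867 peaks with a median of 6.67, and the E2F1 list 36933 peaks with a median of 8.88. After 1 tag was kept per position, the libraries held between 12931227 (Fra-1) and 23853621 (MYC) tags and the input 10758036. These differences in depth and list length mean that fold enrichments and counts are not directly comparable between factors.

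The letters under the summits are shown first, because AP-1 and TEAD sequences at Fra-1 summits are counted below. Of the 40 Fra-1 summits at these genes, 23 had an AP-1 or TEAD match within 50 bp (57.5%), against 60.2% of all Fra-1 summits. The Fra-1 lines shown hold a match more often than that. Each line gives the plus strand of GRCh37, 5′ to 3′, centred on the summit, and capitals mark AP-1 (TGACTCA or TGAGTCA), TEAD (GGAATG, or CATTCC where the match was on the minus strand) or E-box (CACGTG) matches. Of each gene with a Fra-1 peak outside promoters of other genes, the strongest such summit is shown. The promoter summits of CCN2, YAP1 and ANKRD1 and the E2F1 summit of ANKRD1 were added after their values were seen, and stretches touching a UTR were shortened to 30 bases. The CCN2, YAP1 and ANKRD1 promoter summits also lie in promoter windows of noncoding genes.
CCN2, Fra-1, promoter (chr6:132272568-132272648): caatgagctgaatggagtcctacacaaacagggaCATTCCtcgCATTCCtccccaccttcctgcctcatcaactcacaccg
CCN2, Fra-1, upstream flank (chr6:132317207-132317287): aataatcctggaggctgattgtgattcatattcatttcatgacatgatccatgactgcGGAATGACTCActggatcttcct
CCN1, Fra-1, downstream flank (chr1:86072880-86072960): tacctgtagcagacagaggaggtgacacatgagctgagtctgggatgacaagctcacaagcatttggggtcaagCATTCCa
WWTR1, Fra-1, promoter of an internal TSS (chr3:149294161-149294241): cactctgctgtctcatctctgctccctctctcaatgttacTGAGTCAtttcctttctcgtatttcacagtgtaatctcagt
TEAD1, Fra-1, intron (chr11:12746036-12746116): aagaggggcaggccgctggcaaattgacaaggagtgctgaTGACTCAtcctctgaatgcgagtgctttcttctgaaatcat
AMOTL2, Fra-1, downstream flank (chr3:134047164-134047244): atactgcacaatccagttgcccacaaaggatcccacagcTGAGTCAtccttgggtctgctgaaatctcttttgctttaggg
TEAD3, Fra-1, downstream flank (chr6:35395952-35395981): ttaagagctgactggaagcTGACTCAgtta
YAP1, Fra-1, downstream flank (chr11:102115921-102116001): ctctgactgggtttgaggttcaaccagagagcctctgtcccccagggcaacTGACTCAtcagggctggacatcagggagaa
YAP1, Fra-1, promoter (chr11:101982873-101982953): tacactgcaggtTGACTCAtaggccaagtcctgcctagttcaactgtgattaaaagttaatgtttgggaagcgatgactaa
ANKRD1, Fra-1, promoter (chr10:92681075-92681155): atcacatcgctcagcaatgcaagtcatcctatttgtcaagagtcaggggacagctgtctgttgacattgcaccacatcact
ANKRD1, E2F1, promoter (chr10:92681010-92681090): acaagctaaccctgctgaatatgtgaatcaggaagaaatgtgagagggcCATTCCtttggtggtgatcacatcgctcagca

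Fra-1 peaks were densest, per length of locus, over the 4 target genes pooled, and CCN1 alone contributed 10 of their peaks. Over their loci (gene plus flanks), CCN1, CCN2, ANKRD1 and AMOTL2 together held 20 Fra-1 peaks, or 4.59 per 100 kb. Without CCN1, a choice made after the values were seen, the other 3 target genes had 3.01 per 100 kb, while ANKRD1 alone had 0.917, below YAP1, WWTR1, TEAD1 and TEAD3. The coactivator genes held 13 peaks (2.40 per 100 kb) and the TEAD genes 7 peaks (0.878 per 100 kb). For E2F1 the target genes held 53 peaks (12.2 per 100 kb), against 19 at the coactivators (3.50 per 100 kb) and 30 at the TEAD genes (3.76 per 100 kb). The mean of the densities of all coding genes was 0.854 per 100 kb for Fra-1 and 3.55 for E2F1. That mean gives each gene equal weight, whereas the role values pool peaks over summed locus lengths. With that difference, the TEAD genes for Fra-1, and the coactivator and TEAD genes for E2F1, were near it. Within the TEAD genes, E2F1 densities ranged from 2.16 at TEAD1 to 8.10 at TEAD3 (88.0 percentile of coding genes). MYC had 2 peaks at the targets (0.459 per 100 kb), none at the coactivators and 6 at the TEAD genes (0.753 per 100 kb). The mean over all coding genes was 0.688 for MYC, so the TEAD genes were near it. Of the MYC peaks at the TEAD genes, 3 lay in promoters of FANCE or RPL10A. In all, 40 Fra-1, 8 MYC and 102 E2F1 peaks were assigned to the 10 genes, and none of these was assigned to more than 1 of the genes.

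Fra-1 peaks overlapped promoters of 5 of the 10 genes (YAP1, WWTR1, CCN2, ANKRD1 and AMOTL2), whereas 13.2% of all protein-coding genes had a Fra-1 promoter peak. E2F1 peaks overlapped promoters of 10 of 10 genes, with a background of 61.3%. MYC peaks overlapped promoters of 3 of 10 genes (TEAD3, TEAD4 and AMOTL2), with a background of 17.8%. AMOTL2 was the 1 gene with promoter peaks of all 3 factors, a pattern found at 4.67% of coding genes, and YAP1, WWTR1, CCN2 and ANKRD1 had Fra-1 and E2F1 without MYC, a pattern found at 7.67%. When the lists were brought to equal length (4867 peaks each, ranked by −log10 q), the promoters of YAP1, WWTR1 and ANKRD1 kept Fra-1 (3 of 10 genes, background 3.43%) and those of YAP1, WWTR1, TEAD4, CCN1, CCN2 and AMOTL2 kept E2F1 (6 of 10 genes, background 25.7%). With flanks and gene bodies included, Fra-1 was present at 8 of 10 genes (background 55.8%), with no peak at TEAD2 or TEAD4, MYC at 3 of 10 (background 39.5%) and E2F1 at 10 of 10 (background 83%). With 10 genes and 1 library per factor, these shares are a description of the lists.

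**Figure D1:**
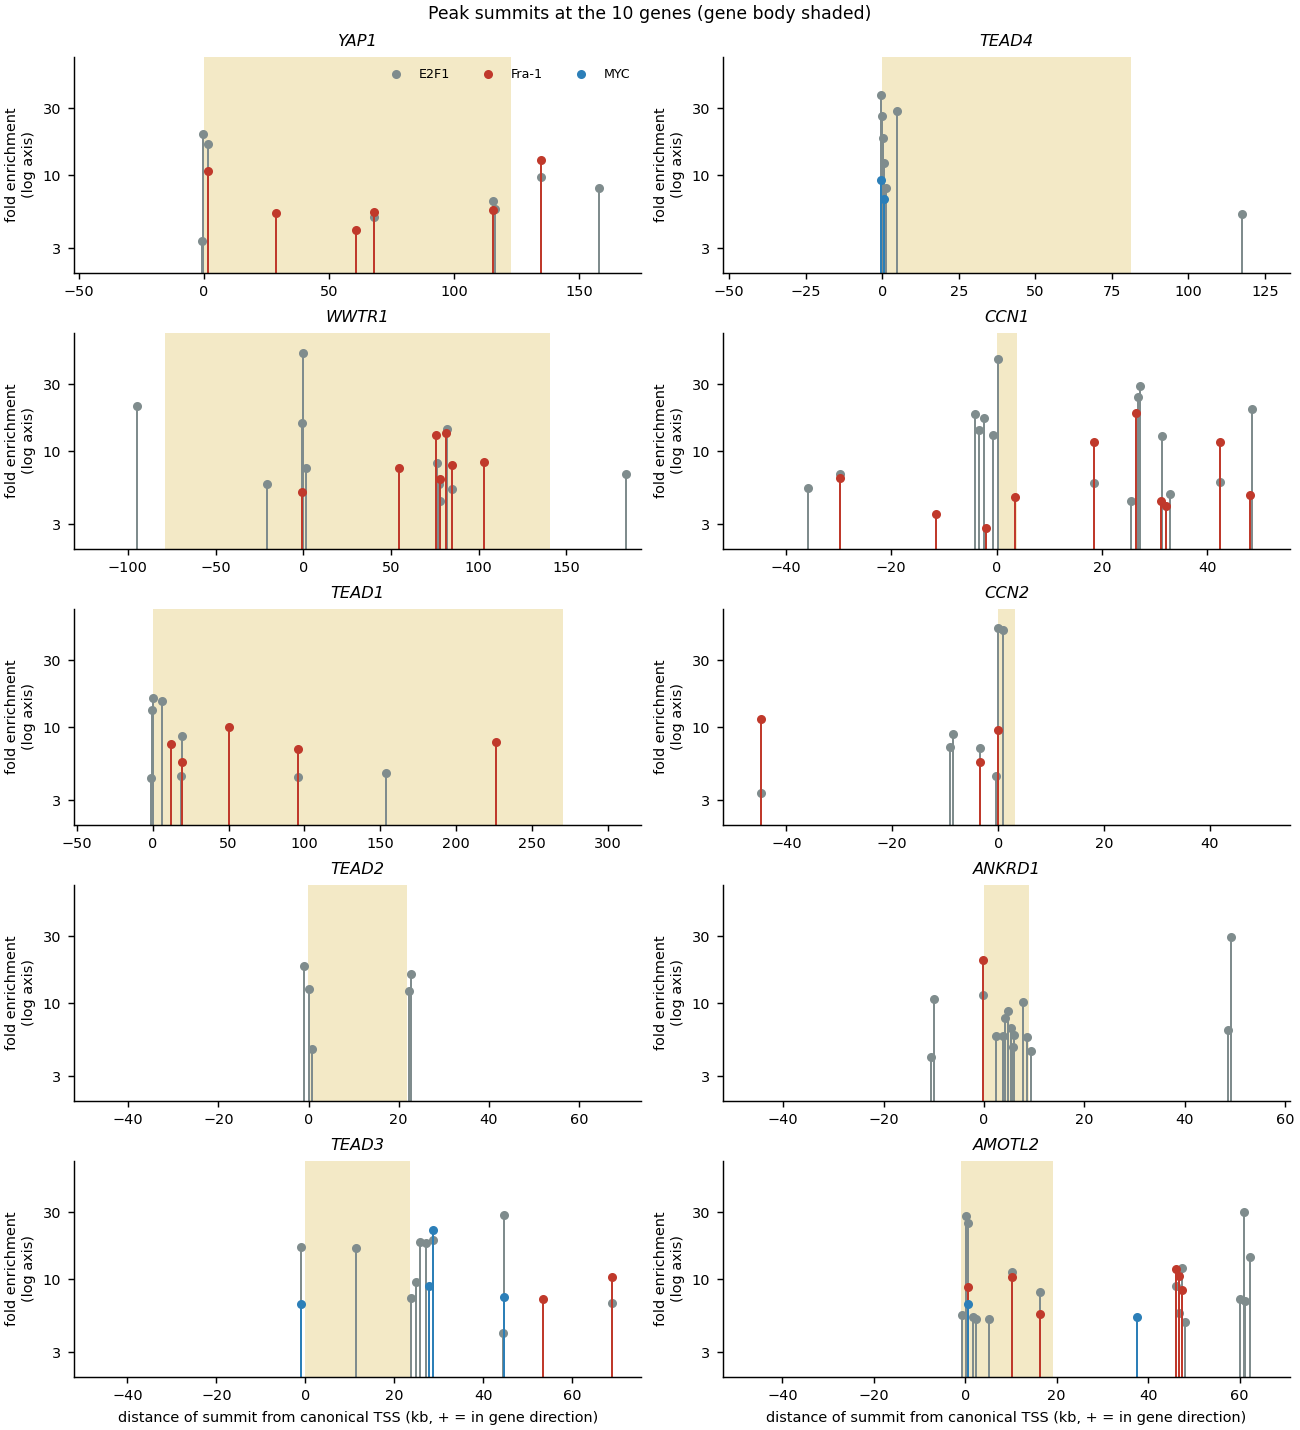
Fold enrichment (log axis) of every peak summit at the 10 genes against its distance from the canonical TSS in kb, with the gene body shaded and Fra-1 in red, MYC in blue and E2F1 in grey. Fra-1 summits lie mostly away from the TSS, at introns of YAP1, WWTR1 and TEAD1 and in the flanks of CCN1, while E2F1 summits appear close to a TSS of all 10 genes and MYC summits appear at TEAD3, TEAD4 and AMOTL2.

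Most Fra-1 peaks assigned to these genes lay outside their promoters. Most of each locus is outside promoters by construction, and no share over all coding genes is given beside these counts. Of the 40 Fra-1 summits, 8 peaks were in promoters, 15 in gene bodies and 17 in flanks, and 32 summits lay more than 10 kb from the canonical TSS, with a median distance of 43.6 kb. Of the E2F1 peaks, 37 were in promoters, 21 in gene bodies and 44 in flanks, and 13 of the peaks outside member promoters lay in a promoter of another coding gene. Of the MYC peaks, 4 were in promoters and 4 in flanks, and 3 of the flank peaks lay in promoters of neighbouring genes. The peaks at the 10 genes were of ordinary strength for their libraries. Their median fold enrichment was 7.68 with Fra-1, 7.10 with MYC and 8.47 with E2F1. Their median percentile in the library was 43.1 (Fra-1), 57.8 (MYC) and 47.3 (E2F1).

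**Figure D2:**
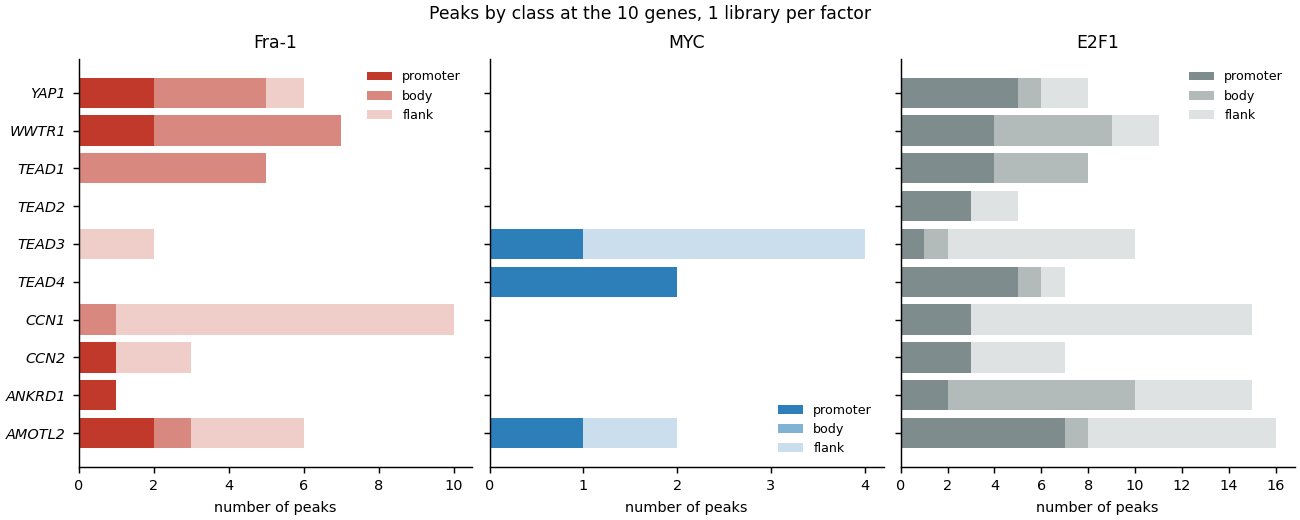
Number of Fra-1, MYC and E2F1 peaks at each of the 10 genes, divided into promoter, gene body and flank (dark to light), with separate horizontal scales for the factors. CCN1 has 10 Fra-1 peaks, 9 of them in the flanks, TEAD2 and TEAD4 have none, and AMOTL2 has 16 E2F1 peaks.

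YAP1 (chr11:101981178-102104155, plus strand), the gene of the main Hippo-regulated coactivator, had 6 Fra-1 peaks and 8 E2F1 peaks, and no MYC peak was called. The Fra-1 peak nearest the canonical TSS lay 1735 bp downstream of it, in an intron, with a fold enrichment of 10.6 (70.6 percentile of Fra-1 peaks), and the AP-1 sequence TGACTCA lay 25 bp from it. An E2F1 peak of 1384 bp and 16.8-fold enrichment covered the same region with its summit 1611 bp downstream of the TSS. A separate E2F1 peak of 19.5-fold enrichment lay 440 bp upstream of the TSS, where no Fra-1 peak was called. The strongest Fra-1 peak of the locus (12.9-fold, 81.6 percentile) lay 134.8 kb from the TSS, downstream of the gene, with TGACTCA 14 bp from its summit. The other Fra-1 peaks, all intronic, ranged from 4.06-fold to 5.66-fold, so YAP1 carried 2 summits above the library median and 4 below it. The background implied by the pileups and fold enrichments at YAP1 was 1.91 times the library median for Fra-1 and 2.43 times for E2F1, and its part in the fold enrichments was not tested.

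WWTR1 (chr3:149235022-149454501, minus strand), which encodes TAZ, had 7 Fra-1 and 11 E2F1 peaks and no MYC peak. At the canonical TSS, E2F1 reached 50.01-fold enrichment (98.6 percentile of E2F1 peaks) with its summit 25 bp downstream, while Fra-1 there was weak, with a 5.08-fold peak 735 bp upstream (10.6 percentile). A group of 4 Fra-1 peaks lay 75.9 to 85.1 kb downstream of the canonical TSS, inside the gene. The strongest of these (13.4-fold, 83.3 percentile) overlapped the promoter window of an internal TSS, its summit was 81.6 kb from the canonical TSS, and a TGAGTCA lay 3 bp from the summit. A 14.4-fold E2F1 peak of 1060 bp overlapped it. A second strong intronic Fra-1 peak (13.1-fold) at 75.9 kb contained 2 copies of TGACTCA, at 12 bp and 37 bp from the summit. Thus at WWTR1 the strongest E2F1 and the strongest Fra-1 peaks lay at different TSSs of the gene.

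Binding at the TEAD genes differed from 1 gene to the next. TEAD1 (chr11:12695968-12966284, plus strand) had 5 Fra-1 peaks, all intronic and outside its promoters, between 12.1 and 226.3 kb from the TSS and from 5.66-fold to 10.1-fold enriched. The strongest of these, 50.1 kb into the gene, had TGACTCA 3 bp from the summit, and 2 of the other summits had GGAATG at 11 and 15 bp. E2F1 marked the TEAD1 TSS with 16.3-fold enrichment 28 bp upstream of it and 13.2-fold enrichment 432 bp upstream. TEAD2 (chr19:49843852-49865714, minus strand) had E2F1 peaks only, 3 of them in the promoter with 18.3-fold, 12.6-fold and 4.72-fold enrichment. Those 3 peaks also lie in a promoter of DKKL1, the adjacent gene, so they cannot be assigned to TEAD2 alone.

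TEAD3 and TEAD4 were the TEAD genes with MYC promoter peaks. At TEAD4 (chr12:3068496-3149842, plus strand), MYC (9.30-fold, 84.6 percentile of MYC peaks) and E2F1 (37.2-fold, 95.2 percentile of E2F1 peaks) had summits 552 and 563 bp upstream of the canonical TSS. A weaker MYC peak (6.73-fold) lay 685 bp downstream, beside an E2F1 peak of 12.1-fold with its summit at 620 bp. No Fra-1 peak was called anywhere in the TEAD4 locus of 181.3 kb. At TEAD3 (chr6:35441374-35464856, minus strand), the MYC promoter peak was 6.65-fold enriched 960 bp upstream of the TSS and overlapped an E2F1 peak of 16.9-fold. The strongest MYC peak near any of the 10 genes (22.4-fold, 99.7 percentile) lay 28.6 kb from the TEAD3 TSS, but in a promoter of RPL10A, a ribosomal protein gene. TEAD3 had 2 Fra-1 peaks, both in the downstream flank more than 50 kb from its TSS (10.3-fold and 7.16-fold), each with an AP-1 sequence within 15 bp of its summit. Neither would count with flanks of 10 kb.

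The letters at all 4 MYC promoter summits are shown because MYC with its partner MAX recognises the E-box CACGTG, and none of the 4 MYC promoter summits of the 10 genes had that sequence within 50 bp. Of all MYC summits, 16.8% had one (95% Wilson interval 15.8 to 17.9%), and 1.41% of equally long stretches placed 2 kb away on either side. The 1 MYC summit of 8 that did was in the downstream flank of AMOTL2, 37.6 kb from its TSS, where enrichment was 5.34-fold (15.4 percentile). In the lines that follow, capitals mark E-box or TEAD matches and the TEAD3 stretch and the second TEAD4 stretch were shortened to 30 bases. They were chosen after the values were seen.
TEAD4, MYC, promoter (chr12:3067971-3068051): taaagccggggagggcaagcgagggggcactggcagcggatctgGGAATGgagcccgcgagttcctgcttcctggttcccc
TEAD4, MYC, promoter, second summit (chr12:3069234-3069263): ggactttgccggagggcaggagtctgcgcg
AMOTL2, MYC, promoter (chr3:134092640-134092720): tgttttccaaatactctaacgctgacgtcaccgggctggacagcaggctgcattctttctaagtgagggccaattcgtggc
AMOTL2, MYC, downstream flank (chr3:134055613-134055693): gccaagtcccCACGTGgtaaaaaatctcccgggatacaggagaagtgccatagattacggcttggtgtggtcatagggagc
TEAD3, MYC, promoter (chr6:35465802-35465831): gacaggaagtgactggggcgcggggaggag

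CCN1 (chr1:86046444-86050272, plus strand) had the most Fra-1 peaks of the 10 genes, and none of its 10 Fra-1 peaks overlapped its promoter windows. From upstream to downstream, their fold enrichments were 6.43, 3.53, 2.83, 4.70, 11.6, 18.7, 4.36, 4.03, 11.7 and 4.83, so 3 of the 10 exceeded the library median, and all 3 were downstream of the gene. The strongest lay 26.5 kb downstream of the TSS, was 635 bp wide (99.9 percentile of Fra-1 peak widths) and reached 18.7-fold enrichment (94.0 percentile). The sequence CATTCC, a TEAD match on the minus strand, was 37 bp from its summit, and no AP-1 match was within 50 bp. The TEAD sequence was also found at 14 and 7 bp from the summits 31.3 and 32.2 kb downstream, whose fold enrichments were 4.36 and 4.03. The absence of a promoter peak depends on the window. The 2.83-fold peak, among the weakest of the whole Fra-1 list (0.0635 percentile), ended 43 bp outside the promoter and lies in a promoter of the neighbouring gene DDAH1.

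The number of Fra-1 peaks at CCN1 corresponds to 9.63 per 100 kb, while the median of coding genes was 0.539, and 7 of the 20098 coding genes had at least that density. E2F1 covered CCN1 from end to end. A single E2F1 peak of 4708 bp (45.3-fold, 97.7 percentile) extended over 100% of the 3829 bp of the gene, at the 99.97 percentile of E2F1 peak widths. A further 2284-bp E2F1 peak of 17.2-fold enrichment lay upstream, with its summit 2295 bp from the TSS. That peak and the E2F1 peaks with summits 4059, 3352 and 603 bp upstream also lie in a promoter of DDAH1. They cannot be assigned to CCN1 alone. At the strong downstream Fra-1 site, E2F1 had summits 26.9 and 27.3 kb from the TSS (24.4-fold and 29.5-fold). The implied background at CCN1 peaks was 1.87 times the library median for Fra-1 and 1.94 times for E2F1. Its part in these values was not tested.

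CCN2 (chr6:132269316-132272512, minus strand) had 3 Fra-1 peaks, and each of the 3 summits had a TEAD sequence within 50 bp. The promoter summit lay 96 bp upstream of the TSS with 9.60-fold enrichment (62.6 percentile). CATTCC occurred there 2 times, at 3 and 6 bp from the summit on either side of it, and the AP-1 sequence was not present within 50 bp. The summit 3505 bp upstream (5.59-fold) had GGAATG at 17 bp and TGACTCA at 23 bp. The strongest, 44.7 kb upstream (11.5-fold, 75.3 percentile), had GGAATGACTCA at chr6:132317265-132317275, where the TEAD and AP-1 matches share 2 bases. Among all Fra-1 summits, 0.988% had matches that shared bases in this way (171 of 17311), compared with 0.0260% of windows placed 2 kb away (9 of 34622). E2F1 peaks at CCN2 were among the strongest of that library, with 51.1-fold enrichment 7 bp upstream of the TSS (98.7 percentile) and 49.4-fold in a peak of 3592 bp whose summit was 925 bp downstream. E2F1 peaks covered 96.3% of the gene, while the median coding gene was covered over 0.522% of its length. This share depends on gene length, 3197 bp at CCN2, and the median is over coding genes of all lengths. At WWTR1, with 219480 bp, E2F1 peaks covered 2.20% of the gene, although its strongest reached 50.01-fold.

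ANKRD1 (chr10:92671853-92680844, minus strand) had a single Fra-1 peak, which had the largest Fra-1 fold enrichment at any of the 10 genes. By −log10 q (84.2 against 84.4) and by pileup (87 against 92) the downstream CCN1 peak was ahead of it. Its summit lay 271 bp upstream of the TSS, with 20.3-fold enrichment (95.6 percentile), and no AP-1 or TEAD match was within 50 bp of it. A CATTCC was centred 53 bp from the Fra-1 summit and lies within the letters shown for the E2F1 summit. An E2F1 peak of 2157 bp had its summit 206 bp upstream of the TSS, with 11.5-fold enrichment (62.5 percentile of E2F1 peaks). Another 8 E2F1 peaks were spread through the gene body, and all E2F1 peaks together, those of the promoter included, covered 59.3% of the gene. At the other 4 genes with Fra-1 promoter peaks, the strongest E2F1 promoter peak ranged from 19.5-fold at YAP1 to 51.1-fold at CCN2. The implied background at the ANKRD1 peaks was 1.76 times the library median for Fra-1 and 1.70 times for E2F1, and its part was not tested.

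AMOTL2 (chr3:134074189-134094321, minus strand) was the only 1 of the 10 genes where all 3 factors met in a promoter. About 0.6 kb downstream of the canonical TSS, the Fra-1 summit (8.84-fold, 624 bp), the MYC summit (6.67-fold, 609 bp) and the E2F1 summit (25.1-fold, 578 bp) lay within an intron, and the Fra-1 and MYC summits were 15 bp apart. By pileup, these Fra-1 and MYC peaks were at the 10.9 and 14.5 percentile of their libraries, and the E2F1 peak at the 74.4 percentile. With 4867 peaks per list, AMOTL2 had no Fra-1 promoter peak, so the pattern of all 3 factors was lost. None of the AP-1, TEAD or E-box letters searched for lay within 50 bp of the Fra-1 or MYC summit. Other forms of these sites were not searched. A second E2F1 peak of 28.5-fold covered the canonical TSS itself. A group of 3 Fra-1 peaks 46.1 to 47.3 kb downstream had 11.7-fold, 10.5-fold and 8.29-fold enrichment, and the strongest of them had TGAGTCA 2 bp from its summit. With 6 Fra-1 peaks, AMOTL2 had 4.99 per 100 kb, a density reached by 240 of the coding genes. In contrast to CCN1, the implied Fra-1 background at its peaks was low, 0.494 times the library median.

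**Figure D3:**
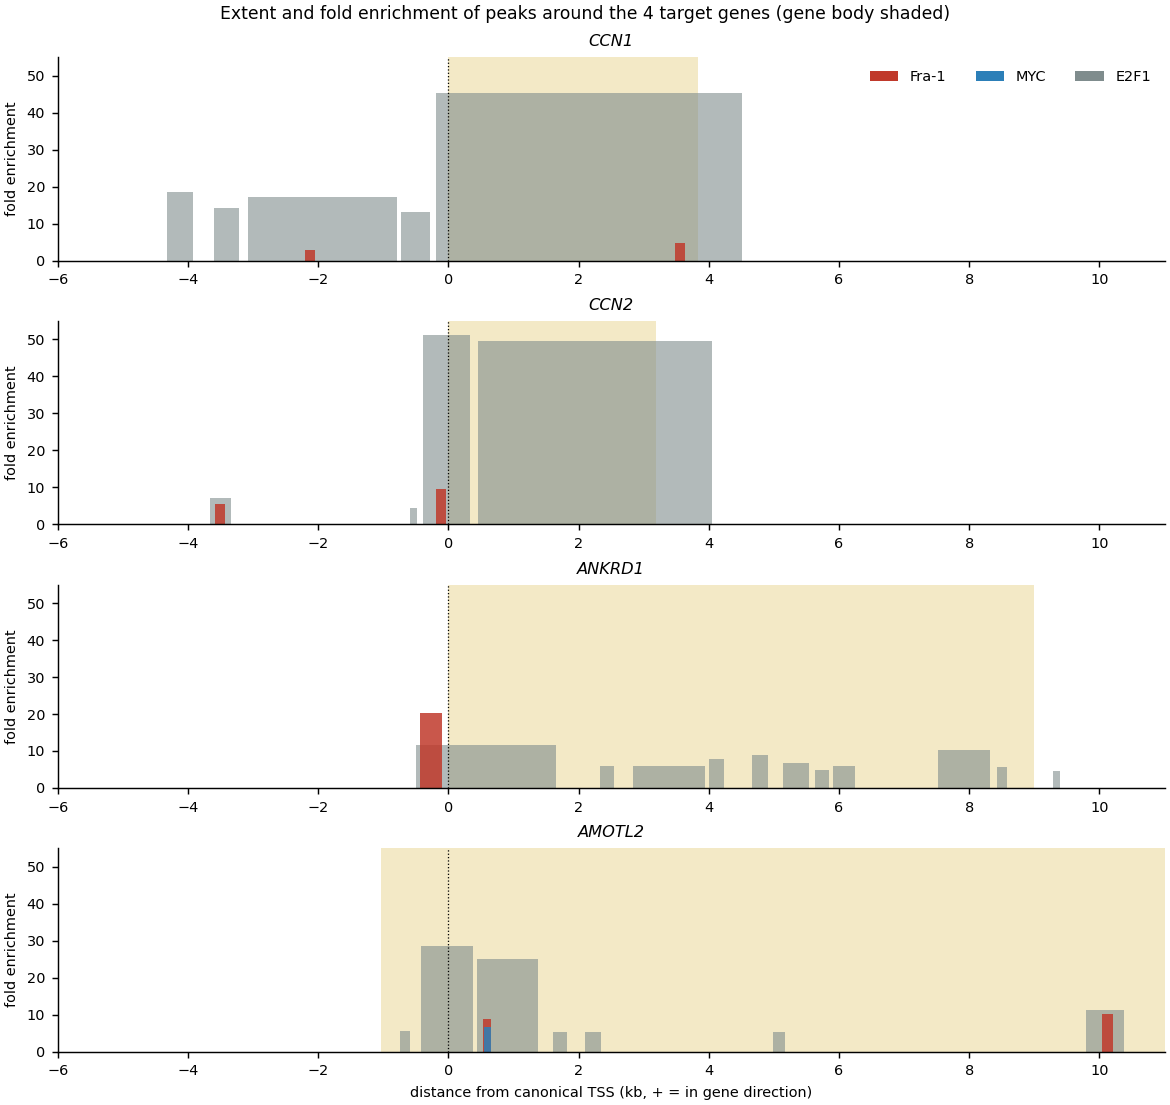
Extent (width of each bar, in kb from the canonical TSS) and fold enrichment (height) of Fra-1 (red), MYC (blue) and E2F1 (grey) peaks around CCN1, CCN2, ANKRD1 and AMOTL2, with the gene body shaded. The E2F1 peak at CCN1 spans the whole gene at 45.3-fold, the ANKRD1 promoter holds a Fra-1 peak of 20.3-fold and an E2F1 peak of 11.5-fold, and the 3 factors share 1 place in AMOTL2.

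Across the 10 genes the median density of Fra-1 peaks was 1.91 per 100 kb, with a range of 0 to 9.63, and the median of coding genes was 0.539. For E2F1 the median was 5.44 per 100 kb with a range of 2.16 to 14.4, and the median of coding genes was 2.24. The order for Fra-1 was CCN1, AMOTL2 (4.99), CCN2 (2.91), YAP1 (2.69), WWTR1 (2.19), TEAD3 (1.62), TEAD1 (1.35), ANKRD1 (0.917), and then TEAD2 and TEAD4 with none. For E2F1 the first places were CCN1 (14.4), ANKRD1 (13.8) and AMOTL2 (13.3), and TEAD1 was last. ANKRD1 therefore stood near the end of the order for Fra-1 and near the top for E2F1. Neighbours in these orders differed by few peaks, and without replicate libraries their order cannot be tested. With flanks of 10 kb, the medians were 3.19 for Fra-1 (0 over coding genes) and 14.0 for E2F1 (2.40 over coding genes).

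**Figure D4:**
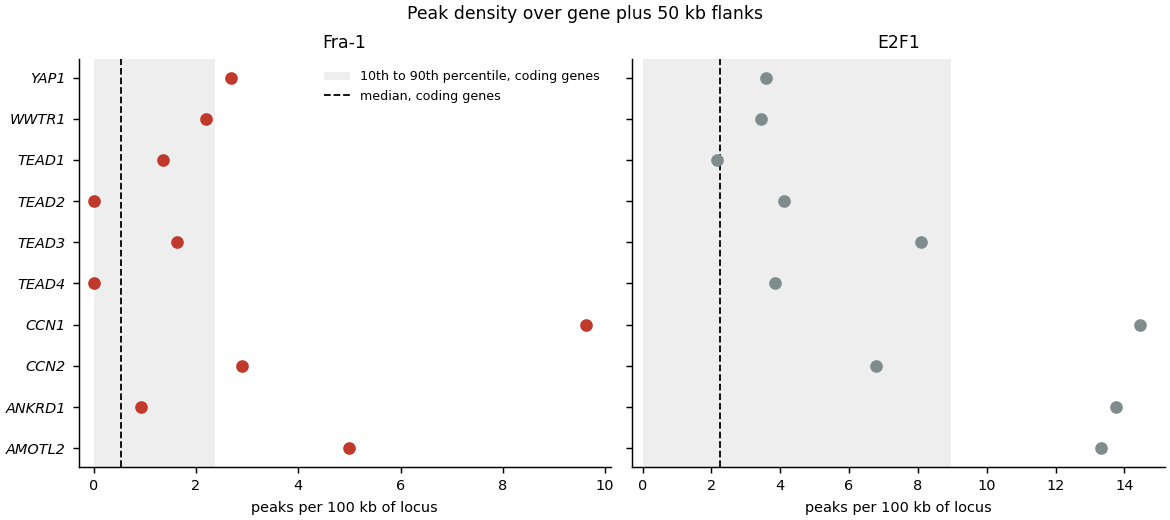
Fra-1 (left) and E2F1 (right) peaks per 100 kb of locus for each of the 10 genes (points), with the median (dashed line) and the 10th to 90th percentile (grey band) of all protein-coding genes. CCN1 is the farthest right in both panels, at 9.63 for Fra-1 and 14.4 for E2F1, and TEAD2 and TEAD4 are at 0 for Fra-1.

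Fra-1 peaks at the 10 genes usually coincided with E2F1. Of the 40 Fra-1 peaks, 31 overlapped an E2F1 peak by at least 1 bp (77.5%, 95% Wilson interval 62.5 to 87.7%), while 61.5% of all Fra-1 peaks did. The median distance between overlapping summits was 65 bp, against 32 bp over all Fra-1 peaks. Only the AMOTL2 promoter peak overlapped a MYC peak (1 of 40, 2.5%, interval 0.443 to 12.9%), against 5.90% of all Fra-1 peaks. The intervals cover counting error only and treat neighbouring peaks as independent. When each list was limited to 4867 peaks, 7 Fra-1 peaks were left at the 10 genes, of which 28.6% overlapped E2F1 and none overlapped MYC. The share over all Fra-1 peaks at that length was not computed, so these values cannot be placed against the library.

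The AP-1 sequence lay within 50 bp of 16 of the 40 Fra-1 summits at these genes (40%, interval 26.3 to 55.4%), of 53.3% of all Fra-1 summits, and of 1.77% of equally long windows placed 2 kb away on each side. The TEAD sequence lay within 50 bp of 9 of the 40 summits (22.5%, interval 12.3 to 37.5%), of 12.6% of all Fra-1 summits and of 5.50% of the windows to the side. Both library-wide shares fall inside the intervals for the 10 genes. By role, the TEAD sequence was present at 6 of 20 summits of the target genes (30%, interval 14.5 to 51.9%), 2 of 7 of the TEAD genes (28.6%) and 1 of 13 of the coactivators (7.69%). The 6 at the target genes were 3 of 10 at CCN1 and 3 of 3 at CCN2. None was at ANKRD1 (1 summit) or AMOTL2 (6 summits). The AP-1 sequence was present at 5 of 20 summits of the target genes (25%, interval 11.2 to 46.9%), 4 of 7 of the TEAD genes (57.1%) and 7 of 13 of the coactivators (53.8%). For the target genes the library-wide shares lie outside these intervals, above the interval for AP-1 and below that for TEAD, but 10 of the 20 summits belong to CCN1 and neighbouring peaks at CCN1 and AMOTL2 lie less than 1 kb apart. Both sequences together were within 50 bp at 2 of 40 summits, both at CCN2, against 5.62% of all Fra-1 summits. With the longer TEAD sequence GGAATGT, 3 of the 40 summits matched (7.5%), against 4.07% of all Fra-1 summits.

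**Figure D5:**
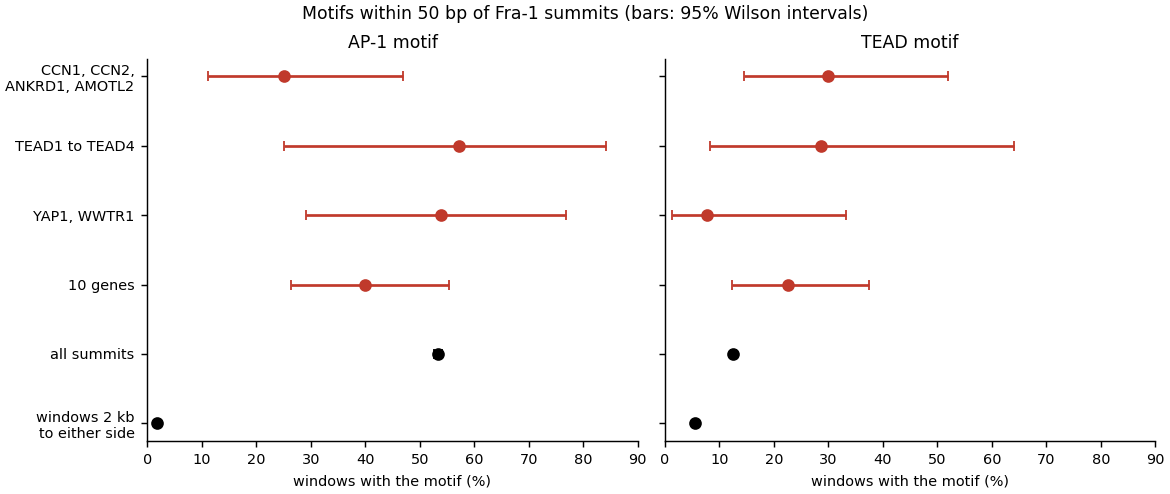
Percent of Fra-1 summit windows (50 bp either side) with the AP-1 sequence (left) or the TEAD sequence (right), for windows 2 kb away, all Fra-1 summits, the summits of the 10 genes, and those of each role, with 95% Wilson intervals as bars. The target genes are at 25% for AP-1 and 30% for TEAD, and the intervals of the 3 roles overlap in both panels.

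Few sequence matches accompanied the other factors. Of the 102 E2F1 summits at the 10 genes, none had an E2F sequence (TTTCCCGC, TTTGGCGC, TTTCGCGC or TTTGCCGC, on either strand) within 50 bp, which allows a share of up to 2.94% by the 3 counts that a count of 0 allows and up to 3.63% by the Wilson interval, and 1.68% of all E2F1 summits had one. AP-1 was within 50 bp of 10.8% of the E2F1 summits at these genes (12.2% of all E2F1 summits), and TEAD of 11.8% (7.71% of all). A match or its absence describes these letters only.

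Other genes of the pathway were read in the same way, from lists also chosen with earlier results known. Among 20 Hippo kinases, adaptors and inhibitors, 19 had an E2F1 promoter peak (95%, background 61.3%), 5 a Fra-1 promoter peak (25%, background 13.2%) and 3 a MYC promoter peak (15%, background 17.8%). AMOT, an angiomotin that binds YAP in the cytoplasm, was the gene with no peak of any factor. VGLL4, which competes with YAP for TEAD, and LIMD1, a LIM domain protein that binds LATS kinases, had promoter peaks of all 3. These are 2 of 20 genes (10%), with a background of 4.67%. At LIMD1 the promoter enrichments were 32.7-fold for Fra-1, 7.89-fold for MYC and 16.6-fold for E2F1, and the Fra-1 value exceeded any found at the 10 genes. At VGLL4 they were 19.8-fold, 5.64-fold and 22.9-fold. STK4, a Hippo kinase gene, had the strongest E2F1 promoter peak of this list (38.9-fold).

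Among 18 other genes known as YAP/TAZ targets, 18 had an E2F1 promoter peak (100%, background 61.3%), 7 a Fra-1 promoter peak (38.9%, background 13.2%) and 2 a MYC promoter peak (11.1%, background 17.8%). The MYC shares of both lists were thus no higher than that of coding genes. A Fra-1 peak in promoter, gene body or flanks was present at 17 of them (background 55.8%), the exception being FOXF2, which encodes a forkhead factor. AXL, a receptor tyrosine kinase gene, was the 1 target of 18 with all 3 factors at its promoter (5.56%, background 4.67%). Its enrichments were 14.7-fold for Fra-1, 7.97-fold for MYC and 64.3-fold for E2F1, and its E2F1 value was the largest of the list. The largest Fra-1 value was at GADD45A, a growth arrest gene (15.0-fold). The median density of Fra-1 peaks was 2.00 per 100 kb over these 18 genes and 0.706 over the 20 kinases, adaptors and inhibitors, beside 1.91 over the 10 genes and 0.539 over coding genes. LATS2 and PTPN14 are in both lists. With only the canonical TSS of each gene, 5 in place of 12 of the 36 genes of both lists had a Fra-1 promoter peak, and the background fell to 7.20%.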

How the data were processed

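Binding was measured by ChIP-Seq of Fra-1, MYC and E2F1, with 1 LM2 library per factor. After trimming (Trimmomatic 0.27), the authors mapped reads to masked hg19 with Bowtie 0.12.5, retaining unique matches without duplicates, and ran MACS2 2.0.10.20120913 on each library (q below 0.01) with 1 shared input. Masked sequence can therefore hold no peaks. The deposited signal is the fragment pileup at the summit, with the larger library scaled towards the smaller, so no counting interval was given for strengths. The deposited ratio is the fold enrichment of this pileup over the local input background, with a pseudocount of 1. The deposited −log10 p- and q-values were used only to rank or filter peaks. Implied background was computed as pileup plus 1, divided by fold enrichment, minus 1.

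Genes and TSSs came from GENCODE 44 mapped to GRCh37, and sequence from GRCh37. No peak ended beyond a chromosome of that genome. Promoters ran from 2 kb upstream to 2.5 kb downstream of any TSS, and 1 bp of overlap sufficed. Percentiles are among all peaks of the same library. Motifs were searched on both strands in 101-bp windows. Intervals are 95% Wilson intervals and cover counting error only. With 1 library per group no test was made and no paired analysis was possible. The 10 genes and both pathway lists were chosen with earlier results of these data known. Named genes were the 10 genes, list genes with promoter peaks of all 3 factors, the list gene with the largest promoter enrichment per factor, and AMOT and FOXF2 as exceptions seen in the values. Python 3.11.15, pandas 2.3.3, scipy 1.17.1 and pysam 0.24.0 were used. On simulated data, 600 of 600 planted peak classes and 1000 of 1000 planted motifs were recovered. A further transcription factor was not analysed here.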

Additional observations from a re-analysis of the deposited data

How the results depend on the processing

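All values rest on 1 library per factor, so none has a replicate check and leaving out a replicate was not possible. No paired analysis was possible because each group has 1 library and no test was made. Of 91 planned recomputed counts, densities and shares, 65 stayed within 1.5 times the value or within the interval given above and 26 moved. The 6 recomputed percentiles have no interval and are given as values. Causes were not tested beyond what each setting does by construction. Promoter counts of the 10 genes stayed within 1.5 times under a −log10 q or fold enrichment of at least 5, windows of 1 kb, canonical TSSs and summits in place of overlap.

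With each list limited to 4867 peaks, fewer peaks remained by construction. Genes with a promoter peak were 3 for Fra-1 and 6 for E2F1, and 5 genes had any Fra-1 peak (24.4% of coding genes). Fra-1 peaks at the 10 genes numbered 3 in promoters, 1 in gene bodies and 3 in flanks, and E2F1 peaks 7, 0 and 7. Median densities were 0.224 (Fra-1) and 0.734 (E2F1) per 100 kb. The share of Fra-1 peaks overlapping E2F1 was 28.6% and MYC 0%, with no library-wide share computed at that length. Of the 36 other pathway genes, 15 had an E2F1 promoter peak (background 25.7%).

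With flanks of 10 kb, flank peaks were 2 (Fra-1), 2 (MYC) and 14 (E2F1), and median densities 3.19 (Fra-1) and 14.0 (E2F1), against 0 and 2.40 over coding genes. With flanks of 100 kb, 5 of 10 genes had a MYC peak, as did 49.5% of coding genes, and flank peaks were 9 (MYC) and 68 (E2F1). Merging peaks within 1 kb gave an E2F1 density of 3.09, since neighbouring E2F1 peaks at these genes were counted as 1. Of the 36 other pathway genes, 5 had a Fra-1 promoter peak with canonical TSSs (background 7.20%). A MYC promoter peak at −log10 q of at least 5 was present at 3 of them (background 12.7%). GGAATGT gave 7.5% for TEAD. Without CCN1, an alternative chosen after seeing the data, the target genes had 3.01 Fra-1 and 11.4 E2F1 peaks per 100 kb.

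The median percentile of the strongest peak per gene was 79.2 (Fra-1), 84.6 (MYC) and 91.0 (E2F1) by fold enrichment. It was 82.5, 78.8 and 92.6 by −log10 q, and 88.9, 50.3 and 94.4 by pileup. The strongest of several peaks tends to a high percentile by construction, and no such value over all coding genes was computed. For MYC the median is over 3 genes. Over all peaks at the 10 genes, the median percentiles by fold enrichment were 43.1 (Fra-1), 57.8 (MYC) and 47.3 (E2F1). By pileup the strongest peak was the same as by fold enrichment at 6 of 8 genes for Fra-1, 3 of 3 for MYC and 6 of 10 for E2F1.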

Other observations

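The pattern of each gene was described by 9 values, the log2 of 1 plus the strongest fold enrichment of each factor in promoter, gene body and flank. The protein-coding gene at the smallest Euclidean distance was ETS2 for YAP1, CAST for WWTR1, CAPN5 for TEAD1, NEK8 for TEAD3, ENSG00000289685 for TEAD4, SERAC1 for CCN1, BTG1 for CCN2, ACSBG1 for ANKRD1 and PTP4A2 for AMOTL2, at distances of 0.17 to 1.28. For TEAD2 it was DKKL1 at a distance of 0, since both genes have the same strongest peaks. None of the 10 genes had another of the 10 as its closest gene. The 10 are few among the 20098 coding genes, so this outcome says little about their likeness. The closest of the 10 ranked from 218th (WWTR1 for ANKRD1) to 8646th (CCN1 for TEAD2). The nearest pair was YAP1 and CCN2 at a distance of 3.97, and CCN2 was the 521st closest coding gene to YAP1.

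Over the whole Fra-1 list, the TEAD sequence was within 50 bp of 10.6% of the 9222 summits that had an AP-1 sequence (95% Wilson interval 9.94 to 11.2%) and of 14.8% of the 8089 summits that had none (interval 14.1 to 15.6%).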
